A study of Mus musculus with 12 samples.

Results

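Interferon-stimulated genes are the genes that cells switch on when interferon, or foreign nucleic acid, is sensed. Here 39 of them, chosen by their mouse symbols, were followed in the PB3 line, breast cancer cells of the mouse that lack HER2 and the receptors for estrogen and progesterone. All 39 were found among the 55573 genes of the deposited tables, and all 39 were among the 14226 genes with enough counts to be tested. Polyadenylated RNA was sequenced in 12 libraries, 3 in each of 4 groups. ERI-R, PAC-R and VIN-R are derivatives of PB3 made resistant to eribulin (spelled Erubilin in the labels), paclitaxel or vinorelbine, and Control is the untreated parental line. The labels list 300, 500 and 800 nM of each drug for making resistant clones, without saying which clone or dose a library came from. All 3 drugs act on microtubules, and no group was treated with interferon according to the labels. Replicates were numbered, but nothing says that each was a culture of its own, and p-values then measure no more than the spread between these samples, which may be technical.

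Type I interferons act through the receptor chains IFNAR1 and IFNAR2 and the kinases JAK1 and TYK2, which activate a complex that contains STAT2 and IRF9. The complex binds a DNA element, the interferon-stimulated response element (ISRE), in front of the genes it switches on. Interferon gamma acts through IFNGR1, IFNGR2, JAK1 and JAK2, and its genes carry a different element, the gamma-activated site (GAS). Macrophages and tumour cells can both respond to interferon, and the products bind viral RNA, block viral assembly or mark proteins for degradation.

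The DNA in front of a few members is shown first, since the pathway is known to reach its genes through such elements. RefSeq start sites on GRCm38.p6 gave 33 windows of 250 bases upstream for 29 of the 39 members. The ISRE core TTTCNNTTTC, searched on both strands, was found in 15 of these windows, each of a different member, which is 45.5% of the members' windows. It was found in 978 of 32851 windows of all genes, or 2.98%. The GAS core TTCNNNGAA, which reads the same on both strands, lay in the windows of 6 members (18.2% of windows, against 7.02% of all windows), and in Bst2 it overlapped an ISRE core. The windows of 5 members are given 5′ to 3′ on the strand of the gene, with ISRE cores in capitals. Ifit1, Isg15 and Rsad2 stand for members with wide differences between libraries, Bst2 for one that stood at 11.8 CPM or more in every library (CPM are counts scaled by library size), and Trim25 for one without a core in this window.
Ifit1 (chr19:34640639-34640888, plus strand): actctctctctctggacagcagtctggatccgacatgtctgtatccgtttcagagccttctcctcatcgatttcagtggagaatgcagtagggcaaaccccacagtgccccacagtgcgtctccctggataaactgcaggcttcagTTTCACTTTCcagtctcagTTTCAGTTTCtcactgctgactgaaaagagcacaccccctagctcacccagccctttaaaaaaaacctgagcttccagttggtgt
Isg15 (chr4:156200819-156201068, minus strand): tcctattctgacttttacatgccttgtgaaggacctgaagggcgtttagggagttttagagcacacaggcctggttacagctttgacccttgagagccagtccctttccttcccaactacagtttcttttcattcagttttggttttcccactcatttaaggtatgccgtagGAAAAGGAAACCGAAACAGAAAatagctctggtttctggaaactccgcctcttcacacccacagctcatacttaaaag
Rsad2 (chr12:26456453-26456702, minus strand): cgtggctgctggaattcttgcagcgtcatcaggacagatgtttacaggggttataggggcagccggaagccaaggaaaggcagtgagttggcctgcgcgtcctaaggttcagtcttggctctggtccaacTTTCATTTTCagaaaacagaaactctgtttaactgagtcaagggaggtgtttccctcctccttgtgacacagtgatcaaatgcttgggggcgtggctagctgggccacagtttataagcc
Bst2 (chr8:71537473-71537722, minus strand): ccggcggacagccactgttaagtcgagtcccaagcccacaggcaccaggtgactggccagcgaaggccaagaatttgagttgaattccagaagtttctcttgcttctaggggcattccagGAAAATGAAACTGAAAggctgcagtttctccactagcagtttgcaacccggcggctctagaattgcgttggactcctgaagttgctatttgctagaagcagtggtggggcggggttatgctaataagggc
Trim25 (chr11:88999153-88999402, plus strand): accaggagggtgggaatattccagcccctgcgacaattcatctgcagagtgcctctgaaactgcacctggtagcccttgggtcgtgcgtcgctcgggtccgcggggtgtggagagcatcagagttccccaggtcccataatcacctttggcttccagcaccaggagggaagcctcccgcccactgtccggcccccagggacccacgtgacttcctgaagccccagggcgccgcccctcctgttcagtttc

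Ifit1 held a pair of separate cores that began at positions -104 and -85 from the start site, and Isg15 held 3 overlapping cores that began at -78, -72 and -66, where -1 is the last base before the start. Rsad2 held 1 core, at -120, and Bst2 held a pair that overlapped, at -130 and -124. In the gene annotation (GENCODE, GRCm38), Ifit1 spans chr19:34640871-34650009, Isg15 chr4:156199424-156200818, Rsad2 chr12:26442746-26456452, Bst2 chr8:71534255-71537456 and Trim25 chr11:88999376-89020293. The start sites of the 2 annotations differ for some genes, so that the Ifit1 window ends inside the annotated gene. A match is a description of the letters and does not show that a factor was bound.

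The libraries differed first in macrophage transcripts. Lyz2, the lysozyme of macrophages, was at 0 CPM (counts scaled by library size and by the trimmed mean of M values, TMM) in ERI-R 3, PAC-R 3, VIN-R 3 and Control 1, and between 182 and 1399 CPM in the other 8 libraries. Divided at 100 CPM of Lyz2, each group held 2 libraries with macrophage transcripts and 1 without. Of 18 macrophage markers, none was at 0 in the 8 libraries, and 11 to 13 were at 0 in each of the 4. Their sum was 881 to 6075 CPM in the 8 and 19.1 to 167 CPM in the 4, with 163 CPM of the 167 in ERI-R 3 from Cd14. Cd3e and Cd2 of T cells and Klrb1c of NK cells were at 0 in all 12 libraries. Other markers of these cells were not. Cd4 of T cells reached 1.92 CPM in the 8 and was at 0 in the 4, and Eomes of NK cells stood at 3.88 to 16.0 CPM over all 12. Neutrophil markers also differed, with a sum of 14.7 to 212 CPM in the 8 and 4.77 to 9.41 CPM in the 4. So did fibroblast markers, with a sum of 19.6 to 59.7 CPM in the 8 and 10.5 to 16.9 CPM in the 4. The sums overlapped for endothelial markers (0.961 to 11.9 CPM against 0.315 to 2.89 CPM) and epithelial markers (853 to 2911 CPM against 2114.5 to 4852 CPM). Totals lay between 11140986 and 13454362 counts, and 3 counts correspond to 0.217 to 0.315 CPM. Ribosomal protein genes took 15.3% of the counts of ERI-R 3 and 3.54% to 8.17% of those of each of the other 11 libraries.

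Interferon-stimulated genes were high where macrophage transcripts were present, in every group. Summed over the 39 members, ERI-R had 5525 and 4856 CPM in the libraries with macrophage transcripts and 434 CPM in the library without. PAC-R had 20972 and 7985 CPM with them and 378 CPM without. VIN-R had 1725 and 18071 CPM with them and 418 CPM without, and Control had 7852 and 2934 CPM with them and 384 CPM without. The 4 libraries without macrophage transcripts, from 4 different lines, thus lay within 378 to 434 CPM, while the 8 with them spread from 1725 to 20972 CPM. Single members still differed among the 4. ERI-R 3 was the highest of them for Bst2 (76.6 CPM) and the lowest for Irgm1 (19.7 CPM). The members took 0.173% to 1.91% of all counts in the 8 libraries and 0.0371% to 0.0424% in the 4. The median member stood at 33.5 to 305 CPM in the 8 and at 3.88 to 6.71 CPM in the 4.

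**Figure D1:**
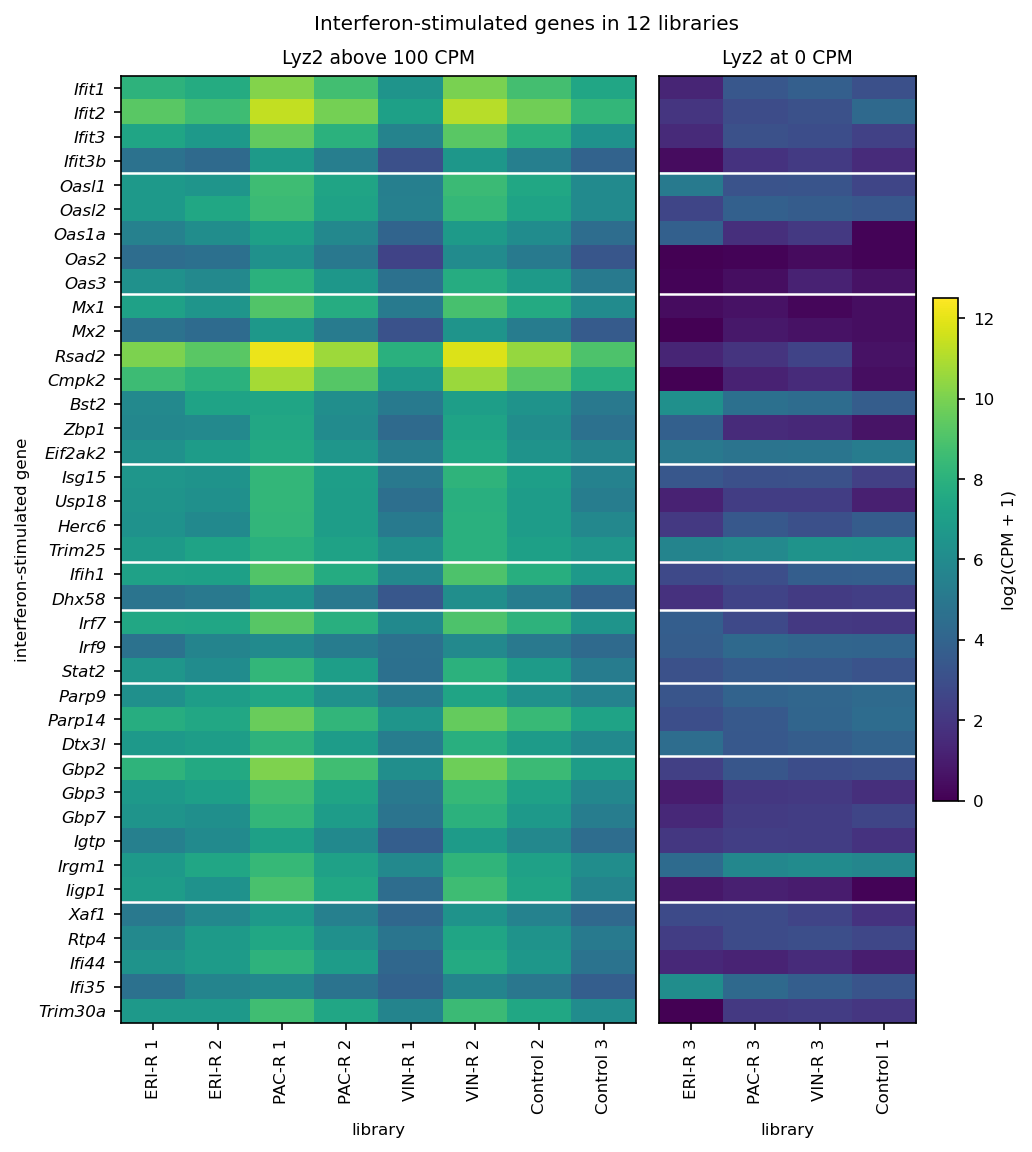
Colour gives log2(CPM + 1) of the 39 interferon-stimulated genes (rows, with white lines between role groups) in each of the 12 libraries (columns). The 8 libraries with Lyz2 above 100 CPM are on the left, where the median member stood at 33.5 to 305 CPM, and the 4 with Lyz2 at 0 are on the right, where it stood at 3.88 to 6.71 CPM.

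For 35 of the 39 members, all 8 libraries with macrophage transcripts lay above all 4 without. The same held for 13.2% of all tested genes, and 8.17% lay the other way round. The 4 members that overlapped were Bst2, Ifi35, Irgm1 and Trim25, and the same 4 overlapped when counts were scaled by library totals alone. Within PAC-R and within Control, both libraries with macrophage transcripts lay above the library without for all 39 members. Within ERI-R and within VIN-R this was so for 37. The share of all tested genes in this order within a group was not counted. An order of 2 libraries above 1 also arises easily without any difference. In bulk RNA, fewer cells of a type and less RNA per cell cannot be told apart, and neither can macrophage RNA and a response of the tumour cells to macrophages.

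The ratio between libraries of the same line shows the size of the difference. The median member was 15.2-fold and 25.1-fold higher in the 2 ERI-R libraries with macrophage transcripts, taking the lower and the higher library of each gene, than in ERI-R 3 (35 members with counts there). The same medians were 28.9-fold and 77.4-fold in PAC-R, 4.82-fold and 42.3-fold in VIN-R, and 11-fold and 31.3-fold in Control (39 members each). With 1 library without these transcripts in each group, the division by macrophage transcripts has no replicate within a line, and no test was made on it. Over all lines, the ratio of the median of the 8 libraries to the median of the 4 was largest for Rsad2 (609), Cmpk2 (601) and Mx1 (504). It was smallest for Ifi35 (1.81), Trim25 (2.04) and Irf9 (2.21). The 15 members with an ISRE core in the upstream window had a median ratio of 26.4 (2.66 to 609), and the 14 members whose window held none had 13.0 (1.81 to 601). These ranges overlapped nearly in full, members without a window such as Mx1 were left out, and the difference was not tested.

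The roles differed in how low they stood without macrophage transcripts. The 4 IFIT genes summed to 278.5 to 4638 CPM in the 8 libraries and 6.40 to 31.7 CPM in the 4. The 5 OAS genes summed to 128 to 1219 CPM in the 8 and 15.4 to 52.7 CPM in the 4. The 4 genes of the ISG15 system summed to 159.7 to 1152 CPM in the 8 and 63.1 to 104 CPM in the 4, where Trim25 made up most of the sum. The 6 interferon-inducible GTPases summed to 222 to 2730.1 CPM in the 8 and 30.2 to 81.9 CPM in the 4.

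The level of the members followed the amount of macrophage RNA among the 8 libraries as well. PAC-R 1 and VIN-R 2 had the highest sums of macrophage markers (6075 and 5769 CPM) and the highest sums of members (20972 and 18071 CPM), and VIN-R 1 had the lowest of both (881 and 1725 CPM). Per CPM of macrophage markers, the members summed to 3.11 and 4.19 CPM in the ERI-R libraries, 3.45 and 3.44 in PAC-R, 1.96 and 3.13 in VIN-R, and 2.44 and 2.35 in Control. The ratio therefore spanned 1.96 to 4.19 while the sum itself spanned 1725 to 20972 CPM. In the 4 libraries without macrophage transcripts the ratio was 2.60 in ERI-R 3, where Cd14 dominates the marker sum, 8.83 in PAC-R 3, 12.3 in VIN-R 3 and 20.2 in Control 1.

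**Figure D2:**
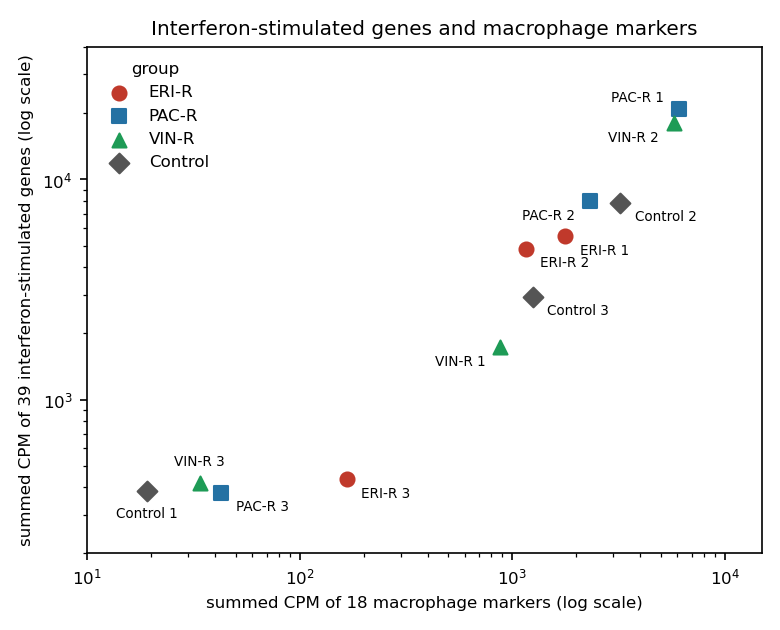
Each point is 1 library, with the summed CPM of 18 macrophage markers on the x axis and the summed CPM of the 39 interferon-stimulated genes on the y axis, both on log scales. The 4 libraries without macrophage transcripts lie at 378 to 434 CPM of members, and the other 8 run from 1725 CPM in VIN-R 1 to 20972 CPM in PAC-R 1.

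The proteins that bind or degrade viral RNA had wide ranges. Ifit1, which binds viral RNA that lacks the host cap methylation, stood at 269, 204 and 1.47 CPM in ERI-R 1 to 3. It stood at 1165, 419 and 9.48 CPM in PAC-R, 87.6, 1028 and 12.8 CPM in VIN-R, and 7.22, 434 and 166 CPM in Control. The lowest value of the 8 libraries with macrophage transcripts, 87.6 CPM, was above the highest of the 4 without, 12.8 CPM, and the ranges of the 4 groups overlapped. The edgeR quasi-likelihood test gave Ifit1 a log2 fold change of -0.36 ± 1.94 (SE) in ERI-R against Control (Benjamini-Hochberg adjusted p = 0.93). Ifit2, Ifit3 and Ifit3b had the same order of libraries with and without macrophage transcripts, and Ifit2 reached 2650 CPM in PAC-R 1. Ifit3 and Ifit3b share 40.7% and 35.3% of their 76-base stretches with each other, so that their counts cannot be told apart fully.

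The OAS proteins make the oligoadenylate messenger that activates RNase L. Oasl2, a relative of these enzymes, stood at 106, 173 and 5.14 CPM in ERI-R, 366, 147 and 13.1 CPM in PAC-R, 42.5, 324 and 11.6 CPM in VIN-R, and 9.60, 151 and 61.1 CPM in Control. Its groups overlapped, with a log2 fold change of 0.35 ± 1.5 (SE) in ERI-R against Control (edgeR, Benjamini-Hochberg adjusted p = 0.92). Oas2 and Oas3, the larger synthetases, were nearly at the floor without macrophage transcripts. Oas2 had 6 counts over those 4 libraries and 4.76 to 77.8 CPM in the other 8, and Oas3 had 30 counts over the 4 and 24.1 to 249 CPM in the 8. Oas1a stood at 44.6, 68.5 and 13.2 CPM in ERI-R, 139, 55.98 and 2.24 CPM in PAC-R, 15.1, 113 and 3.25 CPM in VIN-R, and 0.0722, 67.3 and 21.2 CPM in Control, and shares 47.3% of its 76-base stretches with Oas1g.

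Effectors that act on viral replication and release differed among themselves. Rsad2, viperin, which makes a chain-terminating nucleotide, stood at 1045, 637 and 1.47 CPM in ERI-R, 4429, 1603 and 2.69 CPM in PAC-R, 243, 3719.5 and 4.72 CPM in VIN-R, and 0.505, 1487 and 509 CPM in Control. It was the member with the highest TPM, a level that takes gene length into account, in the 8 libraries with macrophage transcripts, with a median of 598 TPM, and ranked 33 of 39 in the 4 without, with 0.655 TPM. Cmpk2, a mitochondrial nucleotide kinase beside Rsad2 on chromosome 12, stood at 101 to 1785 CPM in the 8 and at 0 to 1.92 CPM in the 4. Mx1, a GTPase that traps viral nucleocapsids, stood at 141, 90.1 and 0.315 CPM in ERI-R, 549, 214 and 0.523 CPM in PAC-R, 34.1, 459 and 0.148 CPM in VIN-R, and 0.361, 199 and 63.5 CPM in Control. Without macrophage transcripts, no line had more than 4.72 CPM of Rsad2, Mx1 or Cmpk2.

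Zbp1 stood at 54.3, 58.9 and 13.4 CPM in ERI-R, 177, 65.0 and 1.87 CPM in PAC-R, 19.2, 149 and 1.70 CPM in VIN-R, and 0.578, 67.8 and 24.6 CPM in Control. ERI-R 3 was thus the only library without macrophage transcripts with more than 1.87 CPM of Zbp1. Bst2 and Eif2ak2 did not follow the pattern of Rsad2. Bst2, tetherin, which holds budding virus at the cell surface, stood at 57.7, 153 and 76.6 CPM in ERI-R, 160.1, 72.3 and 23.4 CPM in PAC-R, 34.3, 129.5 and 20.7 CPM in VIN-R, and 11.8, 85.8 and 32.1 CPM in Control. Its ERI-R libraries with macrophage transcripts lay on either side of ERI-R 3, whereas in the other groups both lay above the library without. Scaled by library totals alone, both ERI-R libraries with macrophage transcripts (67.8 and 176 CPM) lay above ERI-R 3 (65.5 CPM). Its log2 fold change in ERI-R against Control was 1.15 ± 0.90 (SE, edgeR, Benjamini-Hochberg adjusted p = 0.45). Eif2ak2, the RNA-activated kinase PKR that halts translation, stood at 38.2 to 195 CPM in the 8 libraries and 27.2 to 37.0 CPM in the 4, so that its ranges nearly met.

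Isg15 is a small protein that is coupled to other proteins like ubiquitin, and the members named with it attach or remove it or act nearby. Isg15 stood at 92.5, 85.5 and 9.34 CPM in ERI-R, 311, 127 and 7.32 CPM in PAC-R, 31.8, 277 and 7.60 CPM in VIN-R, and 4.19, 131 and 45.9 CPM in Control. Usp18, the protease that removes it and dampens the receptor, stood at 88.2, 77.5 and 1.26 CPM in ERI-R, 307, 125 and 3.81 CPM in PAC-R, 22.5, 235 and 3.84 CPM in VIN-R, and 1.16, 120.0 and 38.2 CPM in Control. Both genes kept the order of libraries, and both had log2 fold changes close to 0 in ERI-R against Control, 0.05 ± 1.53 for Isg15 and 0.07 ± 1.85 for Usp18 (SE). Trim25, a ubiquitin ligase of the RNA-sensing pathway, had the narrowest difference among these 4, with 70.6 to 241 CPM in the 8 libraries and 49.3 to 85.2 CPM in the 4. In VIN-R its 3 values were 70.6, 241 and 85.2 CPM, so that VIN-R 1, the library with the least macrophage RNA of the 8, lay below VIN-R 3.

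Sensors and transcription factors of the response had the same order of libraries. Ifih1, the RNA sensor MDA5, stood at 142, 137 and 5.67 CPM in ERI-R, 543, 202 and 7.02 CPM in PAC-R, 56.8, 520.5 and 12.3 CPM in VIN-R, and 12.6, 229.6 and 104.5 CPM in Control. Irf7, the factor that raises interferon alpha output, stood at 179, 167 and 12.2 CPM in ERI-R, 608, 239 and 5.67 CPM in PAC-R, 59.6, 513 and 3.25 CPM in VIN-R, and 3.03, 268 and 86.3 CPM in Control. Both had the 4 libraries without macrophage transcripts lowest, and among those 4 ERI-R 3 was the lowest for Ifih1 and the highest for Irf7. Stat2 stood at 94.1, 67.4 and 7.56 CPM in ERI-R, 305, 126 and 10.7 CPM in PAC-R, 23.7, 262 and 10.4 CPM in VIN-R, and 8.30, 117 and 37.0 CPM in Control. Irf9, the DNA-binding partner of STAT2, had a narrower difference, 18.95 to 61.7 CPM in the 8 libraries against 12.1 to 18.1 CPM in the 4. Dhx58, the sensor LGP2, stood at 9.36 to 81.1 CPM in the 8 and 2.41 to 4.70 CPM in the 4.

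Parp9 with its partner Dtx3l, and Parp14, modify proteins with ADP-ribose or ubiquitin. Their sum was 161 to 1232 CPM in the 8 libraries and 34.6 to 53.8 CPM in the 4. Parp9 and Dtx3l overlap on opposite strands, over 9.40% and 8.0% of their exonic bases, and no source used here gives the strand setting of the counting. The interferon-inducible GTPases attack the vacuoles of pathogens. Gbp2 stood at 276, 189.6 and 4.09 CPM in ERI-R, 1070.2, 412 and 9.11 CPM in PAC-R, 72.1, 859 and 6.71 CPM in VIN-R, and 7.36, 361 and 125 CPM in Control. Igtp stood at 42.0, 62.2 and 3.04 CPM in ERI-R, 138, 59.2 and 3.96 CPM in PAC-R, 12.2, 117 and 3.76 CPM in VIN-R, and 2.60, 57.0 and 21.5 CPM in Control. Irgm1, which regulates the other GTPases, kept the highest level of the 6 without macrophage transcripts, with 19.7, 54.8, 63.4 and 52.4 CPM in ERI-R 3, PAC-R 3, VIN-R 3 and Control 1. Gbp3 stood at 32.0 to 405 CPM in the 8 libraries and 0.945 to 3.25 CPM in the 4. Iigp1 was the lowest of the 6, with 0.735, 1.12, 0.959 and 0.0722 CPM in those libraries.

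Of the other members, Xaf1, Rtp4, Ifi44 and Trim30a also had all 8 libraries above all 4, and Ifi35 did not. Ifi44 stood at 84.0, 114 and 1.68 CPM in ERI-R, 266, 119 and 1.34 CPM in PAC-R, 17.1, 198 and 1.92 CPM in VIN-R, and 1.01, 96.5 and 25.7 CPM in Control. Trim30a stood at 48.1 to 404 CPM in the 8 libraries and 0 to 3.61 CPM in the 4, and Xaf1 at 17.1 to 104.7 CPM and 2.60 to 6.35 CPM. Ifi35, an interferon-induced protein with a leucine zipper, stood at 24.4 and 48.6 CPM in ERI-R with macrophage transcripts and at 69.5 CPM in ERI-R 3. In the other lines the order was reversed, with 55.2 and 26.1 CPM against 18.5 CPM in PAC-R, 14.04 and 49.3 CPM against 12.5 CPM in VIN-R, and 30.1 and 12.5 CPM against 8.59 CPM in Control. Its log2 fold change in ERI-R against Control was 1.48 ± 0.69 (SE), the largest of the 39, and was not called (edgeR, Benjamini-Hochberg adjusted p = 0.18). Exons of Ifi35 overlap those of Gm11626 on the opposite strand over 16.8% of its bases.

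Which resistant line differed from the parental line was then asked of all 12 libraries in 1 edgeR fit. None of the 39 members was called in any of the 6 comparisons between groups in this fit, whose one term was the group. In ERI-R against Control 19.2% of all tested genes were called, and 0 of 39 members had an unadjusted p under 0.05, against 31.0% of all genes. In PAC-R against Control 0.0% of all genes were called, with 1.72% at an unadjusted p under 0.05. In VIN-R against Control these shares were 0.0% and 2.68%. In ERI-R against PAC-R they were 18.7% and 29.0%, in ERI-R against VIN-R 19.3% and 29.7%, and in PAC-R against VIN-R 0.0% and 1.1%. At an unadjusted p under 0.05, 0 members passed in each of these 5 comparisons too. DESeq2 also called 0 members in all 6, with 1 member at an unadjusted p under 0.05 in ERI-R against Control and 0 in the other 5.

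The standard error of a member's log2 fold change in ERI-R against Control had a median of 1.64 and a range of 0.62 to 2.59, against a median of 0.51 over all tested genes. No member had its 3 ERI-R libraries all above or all below the 3 Control libraries, which was the case for 16.4% and 19.3% of all tested genes. The same count was 0 in the other 5 comparisons. There, 2.91% and 4.67% of all genes lay fully above or below in PAC-R against Control, and 3.47% and 5.08% in VIN-R against Control. The shares were 13.6% and 15.7% in ERI-R against PAC-R, 14.1% and 16.2% in ERI-R against VIN-R, and 1.74% and 1.46% in PAC-R against VIN-R.

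In ERI-R against Control the members' median log2 fold change was 0.06, with 23 positive, 16 negative and a range of -0.41 to 1.48, and the median over all tested genes was -0.0044. Single libraries moved this median. It was 1.27 without Control 2 and 0.72 without ERI-R 3, and all 39 members were then positive. It was -0.37 without Control 1, -0.31 without ERI-R 1, -0.21 without ERI-R 2 and -0.13 without Control 3. Without one PAC-R or VIN-R library it was 0.05 each time.

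The means of the groups show the same spread. Rsad2 averaged 561 ± 526 CPM in ERI-R, 2012 ± 2241 CPM in PAC-R and 1322 ± 2079 CPM in VIN-R, against 666 ± 756 CPM in Control (SD, n = 3 each). Bst2 averaged 95.9 ± 50.7 CPM in ERI-R, 85.3 ± 69.3 CPM in PAC-R and 61.5 ± 59.3 CPM in VIN-R, against 43.2 ± 38.2 CPM in Control (SD, n = 3 each). The SD thus exceeded the mean in all groups but ERI-R for Rsad2, and in none for Bst2.

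In PAC-R against Control the median was 1.26 and all 39 members were positive, against a median of 0.054 over all tested genes. Single members ran from 0.49 to 1.67, and Rsad2 had 1.60 ± 2.59, Isg15 1.3 ± 1.55 and Bst2 0.98 ± 0.90 (SE), each with an edgeR adjusted p of 1. The median was 0.13, with 33 positive, without PAC-R 1, the library with the highest macrophage marker sum. It was 2.62 without Control 2, 0.73 without Control 1, 1.84 without PAC-R 3, 1.12 without Control 3 and 1.37 without PAC-R 2. In VIN-R against Control the median was 0.77, with 39 positive and a range of 0.33 to 1.04, against 0.041 over all tested genes. Rsad2 had 0.99 ± 2.56, Isg15 0.81 ± 1.54 and Bst2 0.51 ± 0.90 (SE), each with an edgeR adjusted p of 1. Without VIN-R 2, whose macrophage marker sum was the highest of the VIN-R libraries, the median was -1.70 with 39 negative, and it was 2.07 without Control 2 and 0.26 without Control 1. It was 1.18 without VIN-R 1 and 1.31 without VIN-R 3. These comparisons share the Control libraries. Leaving out 1 library thus turned the direction of the median in ERI-R and in VIN-R against Control.

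Between lines, ERI-R against PAC-R gave a median of -1.25 with 37 negative, which was -0.07 without PAC-R 1 and -0.56 without ERI-R 3. ERI-R against VIN-R gave a median of -0.68 with 36 negative, which was 1.79 without VIN-R 2 and 0.0012 without ERI-R 3. It was -1.27 without VIN-R 3, -1.13 without VIN-R 1, -1.11 without ERI-R 1 and -1.03 without ERI-R 2. PAC-R against VIN-R gave a median of 0.50 with 39 positive. It was -0.64 with 39 negative without PAC-R 1, -0.0095 with 23 negative without VIN-R 3 and 0.11 without VIN-R 1, and 2.96 without VIN-R 2, 1.08 without PAC-R 3 and 0.65 without PAC-R 2. The medians over all tested genes were -0.046, -0.032 and 0.019.

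Same-numbered libraries of ERI-R and PAC-R deviated from their group means together (correlations of 0.607 to 0.764). So did ERI-R 1 with PAC-R 2 (0.70) and ERI-R 2 with PAC-R 1 (0.572), while pairs with replicate 3 of 1 group were negative (-0.735 to -0.653). Pairing by number thus cannot be told apart from the presence of macrophage transcripts, which replicate 3 lacks in both groups. A fit of these 6 libraries with the replicate number as a block called 12 of 39 members lower in ERI-R than in PAC-R and 0 higher. In that fit 23.7% of all tested genes were called and 11.6% were called lower. The 12 were Ifit1, Ifit2, Ifit3 and Ifit3b, which bind viral RNA, the effectors Rsad2, Cmpk2 and Mx1, the GTPases Gbp2, Gbp7 and Iigp1, and Herc6 and Usp18, which attach and remove ISG15. Ifit3 had a log2 fold change of -1.71 ± 0.36 (SE, edgeR, Benjamini-Hochberg adjusted p = 0.0086) and Rsad2 had -1.40 ± 0.41 (SE, edgeR adjusted p = 0.039). The members' median was -0.90, with 34 negative, against -0.0036 over all tested genes. The count rested on single pairs of libraries, with 1 member called without replicate 1, 9 without replicate 2 and 23 without replicate 3, all lower. The shares of all genes called in these smaller fits were not counted, so these counts cannot be set against them. The sum of macrophage markers was 1776, 1159 and 167 CPM in ERI-R 1 to 3 and 6075, 2322 and 42.8 CPM in PAC-R 1 to 3 (lower in ERI-R for replicates 1 and 2, higher for 3), and their part in the 12 calls was not tested. The same kind of fit called 0 of 39 members in PAC-R against VIN-R (0 at an unadjusted p under 0.05), where 0.0% of all genes were called.

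Fits that carry the macrophage RNA as a term narrow the spread. With a score of the 18 markers, 5 of 39 members were called higher in ERI-R than in Control and 0 lower, while 30.9% of all tested genes were called and 14.9% were called higher. The members were thus called no more often than other genes. The 5 were Zbp1, a sensor of Z-form nucleic acid that triggers cell death, at a log2 fold change of 2.06 ± 0.60 (SE, adjusted p = 0.022), Ifi35 at 1.81 ± 0.59 (adjusted p = 0.037) and Bst2 at 1.70 ± 0.51 (adjusted p = 0.026), by edgeR with Benjamini-Hochberg adjustment. Ifi44, a cytoplasmic interferon-induced protein, had 1.32 ± 0.42 (adjusted p = 0.033) and Irf7 had 1.05 ± 0.31 (adjusted p = 0.023), from the same edgeR fit. Oas1a had the largest fold change, 2.08 ± 0.74, and was not called (adjusted p = 0.054). The members' median was 0.44, with 29 positive. In ERI-R against VIN-R the same fit called 1 of 39 members, Irf7, as higher (adjusted p = 0.024, edgeR), against 29.4% of all genes called and 14.2% called higher.

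These 5 calls depended on the form of the term. With the presence of macrophage transcripts as a term in place of the score, 0 of 39 members were called in ERI-R against Control (2 at an unadjusted p under 0.05), against 31.2% of all genes (42.0% unadjusted). In the 8 libraries with macrophage transcripts alone, 0 of 39 were called (0 at an unadjusted p under 0.05), against 22.7% of all genes (33.8% unadjusted). There the log2 fold changes of Bst2, Ifi35, Ifi44, Zbp1 and Irf7 were 0.95 ± 0.79, 0.89 ± 0.70, 0.81 ± 1.05, 0.41 ± 0.92 and 0.08 ± 0.95 (SE, 2 libraries in each group).

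**Figure D3:**
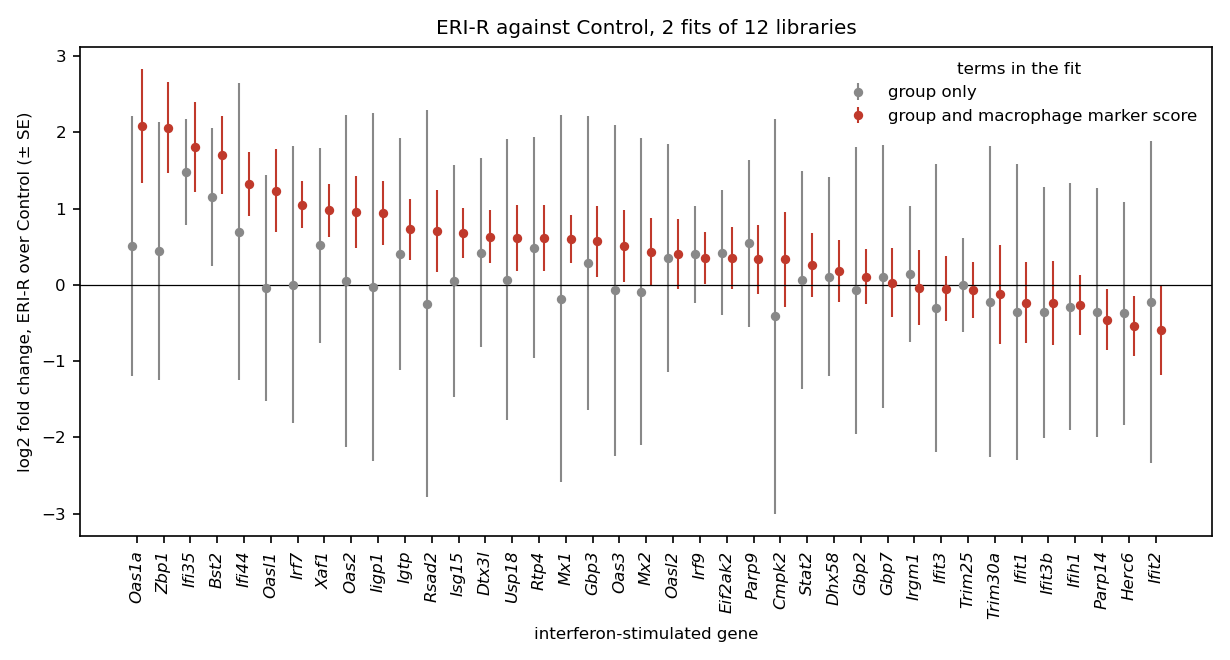
Points give the log2 fold change of ERI-R over Control for the 39 interferon-stimulated genes, with bars of 1 SE, from the fit with group alone (grey) and from the fit with group and a macrophage marker score (red). The bars are shorter in the second fit, where Zbp1, Ifi35, Bst2, Ifi44 and Irf7 were called at 2.06, 1.81, 1.70, 1.32 and 1.05.

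The 4 libraries without macrophage transcripts, 1 from each line, show the members at the level the cultures held without macrophage RNA. There is 1 library per line, so differences have no replicate check and no test was made. Ratios are given with 95% counting intervals, which cover counting error only. At least 2-fold differences were counted. In ERI-R 3 against Control 1, 10 members were higher and 12 lower, against 28.4% and 29.9% of all tested genes. In PAC-R 3 against Control 1, 9 were higher and 1 lower, against 5.49% and 10.3%. In VIN-R 3 against Control 1, 7 were higher and 1 lower, against 3.08% and 4.49%.

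PAC-R 3 and VIN-R 3 differed from Control 1 mostly in members with few counts. Rsad2 had 36 counts in PAC-R 3 and 64 in VIN-R 3, against 7 in Control 1. Usp18 had 51 and 52 counts, against 16, and Cmpk2 had 17 and 26, against 5. Oas1a had 30 and 44 counts, against 1, and Iigp1 had 15 and 13, against 1. Zbp1 had 25 and 23 counts, against 8. At higher levels, PAC-R 3 was above Control 1 in Xaf1 and Ifi35, with ratios of 2.44 and 2.15. Ifit2 was the member that was lower in both, at 6.49 CPM in PAC-R 3 and 7.60 CPM in VIN-R 3, against 18.3 CPM in Control 1. PAC-R 3 and VIN-R 3 differed from each other at least 2-fold in 2 members, Mx1 (higher in PAC-R 3) and Oas3 (lower), against 3.54% and 3.36% of all genes.

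ERI-R 3 differed from the other 3 libraries in both directions, as it did over all tested genes. Against Control 1, the 10 members higher and 12 lower of 39 were close to the shares of all tested genes (28.4% and 29.9%). Against PAC-R 3, 7 members were at least 2-fold higher and 14 lower (23.7% and 23.7% of all tested genes), and against VIN-R 3, 6 were higher and 16 lower (26.4% and 27.3%). Bst2 stood at 76.6 CPM in ERI-R 3, against 23.4 CPM in PAC-R 3, 20.7 CPM in VIN-R 3 and 11.8 CPM in Control 1, a ratio to Control 1 of 6.47 (5.46 to 7.71). Oasl1 stood at 34.2 CPM, against 8.06, 8.63 and 5.13 CPM in the same libraries, a ratio of 6.67 (5.15 to 8.75). Ifi35 stood at 69.5 CPM in ERI-R 3, against 18.5, 12.5 and 8.59 CPM in those libraries, a ratio of 8.09 (6.64 to 9.91). All 3 had at least 71 counts in each of these libraries. Zbp1 stood at 13.4 CPM, against 1.87, 1.70 and 0.578 CPM, a ratio to Control 1 of 23.3 (11.5 to 55.0). Oas1a had 126 counts in ERI-R 3 and 1 in Control 1, a ratio of 183 (32.3 to 7290.3). Irf7 stood at 12.2 CPM, against 5.67, 3.25 and 3.03 CPM, a ratio of 4.01 (2.80 to 5.86).

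The IFIT genes lay the other way. Ifit1 stood at 1.47 CPM in ERI-R 3, against 9.48 CPM in PAC-R 3, 12.8 CPM in VIN-R 3 and 7.22 CPM in Control 1, a ratio to Control 1 of 0.203 (0.107 to 0.358). Ifit2 stood at 2.83 CPM, against 6.49, 7.60 and 18.3 CPM, a ratio of 0.154 (0.10 to 0.230). Irgm1 stood at 19.7 CPM, against 54.8, 63.4 and 52.4 CPM, a ratio of 0.376 (0.319 to 0.442), and Parp14 had a ratio of 0.347 (0.261 to 0.454). Oas2, Mx2, Cmpk2 and Trim30a were at 0 counts in ERI-R 3, and Ifit3b, Oas3 and Mx1 had 3, 1 and 3 counts there. In the other libraries without macrophage transcripts, 1 to 3 counts were found for Oas2 in PAC-R 3, Mx1 in VIN-R 3, and Oas1a, Oas2 and Iigp1 in Control 1. ERI-R 3 is also the library with the highest share of ribosomal protein counts and the only one of the 4 with Cd14 above 100 CPM, and their part in these differences was not tested.

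**Figure D4:**
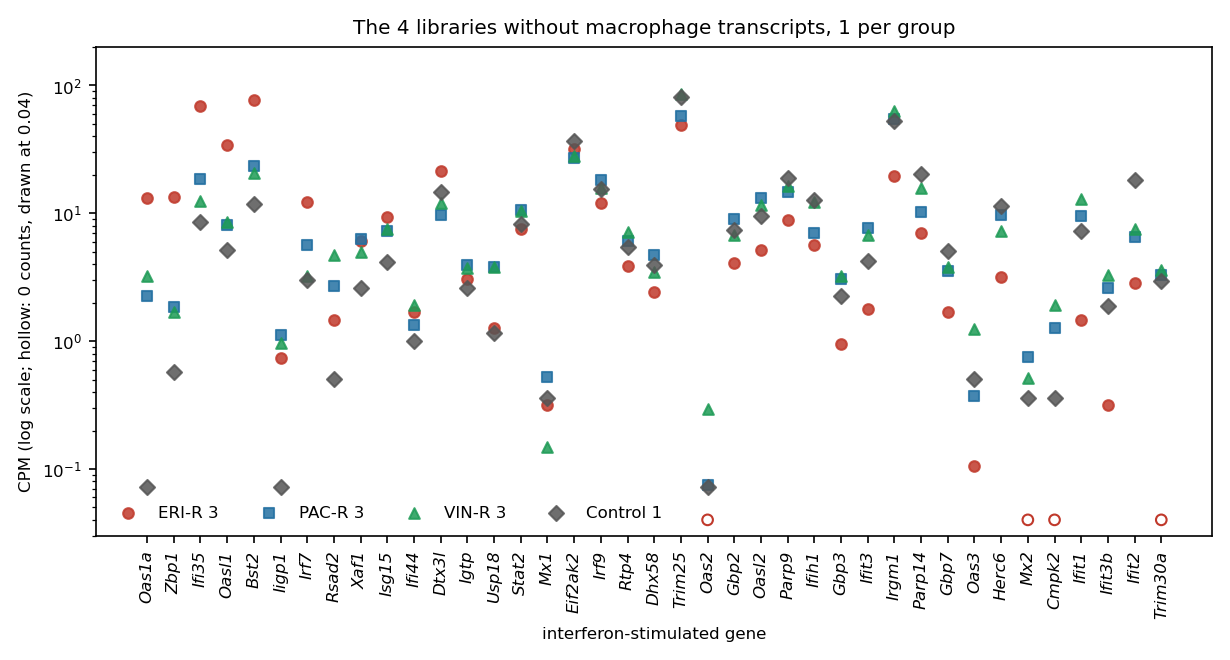
CPM (log scale) of the 39 interferon-stimulated genes in the 4 libraries without macrophage transcripts, ordered by the ratio of ERI-R 3 to Control 1, with hollow points for 0 counts. ERI-R 3 is highest for Bst2, Ifi35, Oasl1, Zbp1, Oas1a and Irf7, and lowest for Ifit1, Ifit2 and Irgm1. Of all tested genes, 28.4% were at least 2-fold higher and 29.9% lower in ERI-R 3 than in Control 1.

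ERI-R 2 stood apart in the ratio of a few members to Ptprc, the leukocyte antigen CD45. Bst2 had 0.474 and 2.06 CPM per CPM of Ptprc in ERI-R 1 and 2, 0.418 and 0.473 in PAC-R, 0.581 and 0.399 in VIN-R, and 0.418 and 0.388 in Control. ERI-R 2 was the highest of the 8, by a wide margin. Ifi35 had 0.200 and 0.652 in ERI-R, against 0.144 to 0.238 in the other 6 libraries. Rsad2, in contrast, had ratios of 8.58 and 8.55 in the ERI-R libraries, 11.6 and 10.5 in PAC-R, 4.12 and 11.4 in VIN-R, and 7.25 and 6.14 in Control, with ERI-R in the middle of the range.

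Per gene length, the order of the members differed with and without macrophage transcripts. In the 8 libraries with them, the highest medians were 598 TPM for Rsad2, 372 TPM for Isg15, 353 TPM for Ifit2, 285 TPM for Cmpk2 and 239.7 TPM for Ifit1. In the 4 without, they were 51.6 TPM for Bst2, 40.3 TPM for Irgm1, 19.1 TPM for Ifi35, 19.0 TPM for Trim25 and 16.6 TPM for Isg15. The ranges over the 4 libraries overlapped for Bst2 (33.0 to 100.4 TPM) and Irgm1, the next in this order (8.32 to 48.6 TPM). Isg15 was the member among the highest 5 in both.

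The rest of the pathway was read from 45 genes outside the module, of which 36 were tested. Ligands had few counts. Ifnb1, interferon beta, was at 0 in the 4 libraries without macrophage transcripts, and in those with them stood at 0.684 and 0.457 CPM in ERI-R, 5.75 and 1.68 CPM in PAC-R, 0.418 and 7.67 CPM in VIN-R, and 2.43 and 0.961 CPM in Control. Its highest values thus fell in VIN-R 2 and PAC-R 1, the libraries with the highest members. Ifng, interferon gamma, reached at most 1.63 CPM, and the other 8 ligands had at most 5 counts over all 12 libraries.

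Among receptors, Ifnlr1 was the gene that passed the test. Ifnlr1, the specific chain of the interferon lambda receptor, stood at 10.9, 8.07 and 8.50 CPM in ERI-R, 0.192, 0.421 and 0.0746 CPM in PAC-R, 0.167, 0.548 and 0.148 CPM in VIN-R, and 0.866, 0.586 and 0.524 CPM in Control. All 3 ERI-R libraries, with and without macrophage transcripts, lay above the other 9. The log2 fold change was 3.78 ± 0.62 (SE) in ERI-R against Control, with an edgeR Benjamini-Hochberg adjusted p of 0.0020. It was 5.28 ± 0.68 in ERI-R against PAC-R and 4.97 ± 0.67 in ERI-R against VIN-R (SE), with edgeR adjusted p-values of 7.7e-04 and 7.3e-04. Ifnlr1 was called in ERI-R against Control under all 22 alternatives. Of its ligands, Ifnl2 and Ifnl3 were at 0 counts in all 12 libraries. In ERI-R against Control, 1 of 36 pathway genes was called, Ifnlr1, with 0 lower, against 19.2% of all tested genes. In PAC-R or VIN-R against Control 0 pathway genes were called by edgeR or DESeq2, and edgeR called 0.0% of all genes. At an unadjusted p under 0.05 there were 1 and 0 in edgeR, against 1.72% and 2.68% of all genes, and likewise 1 and 0 in DESeq2.

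Ifnar1, Jak1 and Jak2 had lower values in ERI-R than in Control and were not called by edgeR. Ifngr2, a chain of the interferon gamma receptor, stood at 66.2, 66.9 and 30.5 CPM in ERI-R, against 26.2, 67.8 and 47.9 CPM in Control, with a log2 fold change of 0.21 ± 0.62 (SE, edgeR, Benjamini-Hochberg adjusted p = 0.88). Ifnar1 stood at 66.4, 47.3 and 28.5 CPM in ERI-R, against 69.4, 103 and 86.9 CPM in Control, with all 3 ERI-R libraries below. Its log2 fold change was -0.86 ± 0.45 (SE, edgeR, Benjamini-Hochberg adjusted p = 0.23). Jak1 stood at 153, 140.1 and 54.6 CPM in ERI-R, against 212, 239 and 237 CPM in Control, with all 3 ERI-R libraries below, and had -0.98 ± 0.42 (SE, edgeR adjusted p = 0.13). Jak2 stood at 161, 96.8 and 12.5 CPM in ERI-R, 506, 451 and 146 CPM in PAC-R, 257, 536 and 226 CPM in VIN-R, and 347, 498 and 503 CPM in Control. Its 3 ERI-R libraries lay below all 3 Control libraries, and its log2 fold change of -2.32 ± 0.78 (SE) was not called (edgeR adjusted p = 0.064). It was called with DESeq2 (adjusted p = 0.012), and with the macrophage marker score in the edgeR fit, at -2.62 ± 0.54 (SE, adjusted p = 0.0033). In that fit Jak1 (-1.06) and Ifnar1 (-0.89) were called lower and Tlr3, a sensor of double-stranded RNA, higher (1.62). Of all tested genes, 30.9% were called there. With the replicate number as a block, ERI-R against PAC-R had 7 of 35 pathway genes called, against 23.7% of all tested genes. Ifnlr1 was higher and Jak2, Socs1, Il10rb, Trex1, Irf8 and Irf1 were lower, at log2 fold changes of 5.40, -2.37, -1.99, -1.14, -1.23, -2.79 and -1.03.

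Ifnar2, Ifngr1, Tyk2, Irf1 and Irf3 had log2 fold changes of -0.42, -0.30, -0.48, -0.49 and 0.47 in ERI-R against Control, with adjusted p-values of 0.43 or more by edgeR. Tyk2 stood at 30.4, 22.9 and 13.01 CPM in ERI-R, 55.0, 34.3 and 32.1 CPM in PAC-R, 28, 45.3 and 31.7 CPM in VIN-R, and 29.7, 38.2 and 24.7 CPM in Control. Its ERI-R libraries overlapped those of VIN-R and Control and lay below those of PAC-R.

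**Figure D5:**
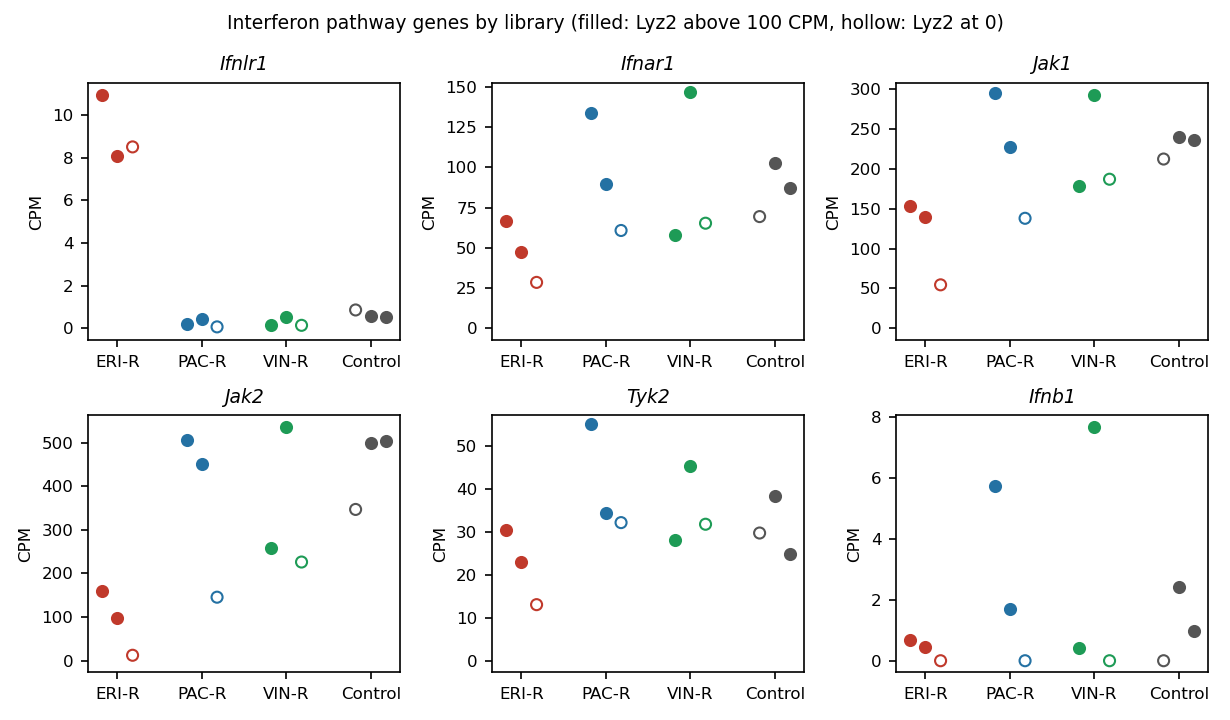
CPM of 6 interferon pathway genes by library in the 4 groups (filled points, Lyz2 above 100 CPM; hollow points, Lyz2 at 0). Ifnlr1 stands at 8.07 to 10.9 CPM in ERI-R and below 1 CPM elsewhere, Jak1 and Jak2 are lower in all ERI-R libraries than in Control, and Ifnb1 is at 0 in the hollow libraries.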

How the data were processed

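Polyadenylated RNA of 12 PB3 libraries (200 ng input, paired ends of 76 bases) was analysed. The submitters' processing notes name RSEM 1.3.2, STAR 2.7.2b, cutadapt 2.4, bcl2fastq 2.20.0.422 and the build GRCm38, without roles. Annotation and strand setting were not given in the sources used here. Each deposited table holds, per the file headers, the authors' expected count per gene, which is not normalized. It also holds the authors' TPM, which is scaled to gene length and library size.

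Expected counts were rounded, which changed 15.3% of values above 0. Symbols came from GENCODE M21 (GRCm38), which matched 55480 of 55573 genes. A single quasi-likelihood fit in edgeR 4.0.16 (R 4.3.3, limma 3.58.1) gave each group a mean and used all 12 libraries, after filterByExpr (14226 genes kept) and TMM, and CPM are scaled by TMM. The common biological coefficient of variation was 0.591, with 8 residual degrees of freedom and 2.64 prior ones (median). The threshold was 0.05 on p-values adjusted by Benjamini-Hochberg across the tested genes. The macrophage score is the mean log2(CPM + 1) of 18 markers. Alternatives, 22 in all, were DESeq2 1.42.0, scaling, filters, macrophage covariates, a replicate block, subsets and leaving out each library. A further 4, added after seeing the data, put a replicate block on 2 groups at a time and left out each replicate number in turn. They cover ERI-R with PAC-R and PAC-R with VIN-R, since deviations from the group means correlated for every same-numbered pair there (0.607 to 0.764 and 0.221 to 0.917). Replicates 1 and 2 also correlated across numbers. The values were 0.70 and 0.572 in ERI-R with PAC-R, and 0.865 and 0.183 in PAC-R with VIN-R. The labels say nothing of pairing, and replicate 3 is the library without macrophage transcripts in all 3 resistant lines. The fit was tested on simulated counts. These had less spread than the data and no difference in macrophage transcripts between libraries, so the test does not speak to the members. Floors are 3 counts per library. Totals of 11140986 to 13454362 counts set the precision, and intervals and floors cover counting error only.

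Members, gene lists and the rule for named genes were chosen with earlier results of these data known. The rule took all called members up to 6 per direction, 12 members that stand for the roles, the 5 highest members and those at or under 3 counts without macrophage transcripts, the called pathway genes and 9 further pathway genes. One of these is not reported here. Jak2, Tlr3, Ifng, the genes called with the block on 2 groups and the members named beyond the rule in the libraries without macrophage transcripts were chosen after their values were seen.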

Additional observations from a re-analysis of the deposited data

Results flagged for a closer look

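Ifi35 differed between lines in its order with and without macrophage transcripts. In ERI-R the libraries with them had 24.4 and 48.6 CPM, below the 69.5 CPM of ERI-R 3 without them. In PAC-R, VIN-R and Control both libraries with macrophage transcripts lay above the library without. The difference was not tested, since each line holds 1 library without these transcripts. Scaled by library totals alone, the ERI-R values were 28.7 and 55.6 CPM with macrophage transcripts and 59.4 CPM without, in the same order.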

How the results depend on the processing

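Under 22 alternatives the count of members called stayed at 0 in all 6 comparisons, apart from the macrophage marker score as a covariate, which gave 5 in ERI-R against Control and 1 in ERI-R against VIN-R. Leaving out each library in turn gave 0 to 0 members in every comparison. The count of pathway genes called, 1 in each comparison of ERI-R, moved in ERI-R against Control to 2 with DESeq2, 2 in the libraries with macrophage transcripts alone, 3 with the presence of macrophage transcripts as a covariate and 5 with the score, and leaving out each library gave 1 to 2, with 2 without ERI-R 1. In ERI-R against PAC-R it was 3, 2, 6 and 6 in the same order of settings, and in ERI-R against VIN-R 2, 2, 5 and 7. Of all tested genes, 19.2% were called in ERI-R against Control with group alone. The share was 22.7% in the libraries with macrophage transcripts alone, 31.2% with their presence as a covariate and 30.9% with the score. With the score it was 29.4% in ERI-R against VIN-R. Shares with DESeq2, and the other shares of ERI-R against PAC-R and VIN-R under these settings, are not given. Those counts of pathway genes thus cannot be set against all genes. Same-numbered replicates deviated together in ERI-R with PAC-R and in PAC-R with VIN-R, as did replicates 1 and 2 across numbers. Same-numbered replicates did so in part in ERI-R with VIN-R (correlations of 0.083 to 0.671), and in no comparison with Control for all 3 numbers (-0.863 to 0.742). With a replicate block over all 12 libraries, 0 members were called in all 6 comparisons and 2 pathway genes in ERI-R against Control. The members' median was then -1.40 with 34 negative in ERI-R, -0.15 with 20 negative in PAC-R and -0.92 with 33 negative in VIN-R, each against Control. The replicate block within the 2 groups compared was chosen after seeing the data. In ERI-R against PAC-R it called 12 members and 7 pathway genes, against 23.7% of all tested genes. Without replicates 1, 2 and 3 in turn that gave 1, 9 and 23 members and 2, 4 and 16 pathway genes. In PAC-R against VIN-R it gave 0 members and 0 pathway genes, and 3, 1 and 0 members without replicates 1, 2 and 3 (3 lower, 1 higher). With a replicate left out, the shares of all genes called were not counted in either comparison. Of 1016 values of single genes under alternatives, 1001 kept their call, 15 were newly called, and 0 called values changed sign. Among values not called, 90 changed direction. Without macrophage transcripts each line has 1 library, and at these depths members under 3 counts cannot be ranked. The cause of these changes was not tested.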
